A study of Mus musculus with 4 samples.

Results

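The cells described here were Pax7-positive myoblasts that were in the division cycle by their transcripts, taken from a library of cultured mouse myoblasts. They were chosen by a rule on measured counts. Barcodes with 1000 or more UMIs (unique molecular identifiers, which count captured RNA molecules) and 500 or more genes were kept if mitochondrial genes made up 10% of UMIs or less. A kept cell was a member with at least 3 UMIs of Pax7, 0 UMIs of Myog and at least 5 UMIs summed over Mki67, Top2a, Cenpf, Cdk1 and Ccnb1. Of 2412 kept cells in the myoblast library, 846 were members (35.1%, exact binomial interval 33.2 to 37.0%), and the whole series held 21301 kept cells. Because these counts chose the cells, every comparison of them with other cells of the same library is a description and carries no test.

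Pax7 is a paired-box transcription factor made by satellite cells, the stem cells of muscle, and by the myoblasts that descend from them. When such cells are grown in culture they make Myod1, divide, and on leaving the cycle switch on Myog, the factor that starts fusion and the genes of the contractile apparatus. In each round of division, E2F factors first raise the enzymes and helicase subunits that copy DNA. Later the kinase formed by Cdk1 and cyclin B drives mitosis, with the motors, kinetochore proteins and spindle regulators needed to separate chromosomes. Genes of that late wave are known for promoters with a CCAAT box, bound by NF-Y, and with the element TTTGAA, called CHR and bound by the DREAM and MuvB complexes.

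All 4 libraries of the series, 1 per group, carried Pax7-nGFP, a reporter that marks nuclei of Pax7-expressing cells with GFP. The myoblasts were derived from a 16-week-old male and were at passage 2 in DMEM and F10 with 10% horse serum, 20% FBS and 10 ng/ml basic FGF. They were collected with trypsin and not sorted. The culture called MPC, for myogenic progenitor cells, spent 2 passages in that medium and then 5 passages with Forskolin at 5 µM, which raises cAMP, Repsox at 5 µM, which inhibits the TGF-beta receptor, and CHIR9901 at 3 µM, in a medium with 10% FBS, serum replacement and 10 ng/ml basic FGF. Its parental cells also stemmed from a 16-week-old male. The ASC library (activated satellite cells) was sorted on GFP from 17 pooled tibialis anterior muscles of mice of both sexes, 18 to 24 weeks old, 3 days after cardiotoxin. The fiSC library (freshly isolated satellite cells) was sorted on GFP from pooled limb muscles of 3 males of 13 weeks. With 1 library per group, the animals, the library and the condition cannot be told apart, and cells are not replicates of a condition.

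The kept myoblast cells held 56664073 of the library's 60415378 UMIs, and the median kept cell held 22957.5 UMIs in the myoblast library, 13751 in MPC, 19853 in ASC and 8831 in fiSC. The members held 23144739 UMIs, with 3228 UMIs in the shallowest, 26091 in the median and 85105 in the deepest cell. The kept cells outside the rule had a median of 21361. Of the 2412 kept barcodes, 11 were also kept in the MPC library, 3 in ASC and 3 in fiSC, and 7 members were among them. Levels below are CPM, a gene's UMIs per 1000000 UMIs of a class of cells, with exact Poisson intervals at 95%. Those intervals and the binomial intervals of shares cover counting error only.

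Pax7 and the 5 cycle genes of the rule were spread widely over the members, and Myog was at 0 in each by the rule. Pax7 had 3 UMIs in the lowest, 33 in the median and 135 in the highest member. The proliferation marker Mki67 had a median of 6 UMIs and was found in 91.5% of members, against 11.1% of the 629 non-cycling Pax7-positive cells, which met the same criteria but had at most 4 UMIs of the 5 cycle genes. Top2a, the topoisomerase that untangles sister chromosomes, had a median of 15 UMIs and was found in 92.9% of members, against 31.0% of non-cycling cells. The kinetochore protein Cenpf was found in 85.7%, the mitotic kinase Cdk1 in 88.7% and its partner cyclin B1, Ccnb1, in 79.2% of members, against 12.6, 18.9 and 9.86% of non-cycling cells. No single cycle gene was therefore present in all members, and the sum of the 5 genes had a median of 30 and a maximum of 233 UMIs.

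At the edge of the rule the classes met. The 39 members with exactly 5 cycle-gene UMIs had 91.3 CPM of Top2a and 109 CPM of Hmgb2, a DNA-bending protein, against 56.5 and 72.1 CPM in the 39 cells with 4. The helicase subunit Mcm6 had 91.3 CPM just inside and 97.3 CPM just outside. Beyond the edge, 139 members had 5 to 9 cycle-gene UMIs, 282 had 10 to 29 and 425 had 30 or more. Only 4 members had exactly 3 Pax7 UMIs, and 2 cells with 2 Pax7 UMIs met the other criteria. The Myog criterion kept out 235 cells that otherwise met the rule, and 138 of them had exactly 1 Myog UMI.

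**Figure D1:**
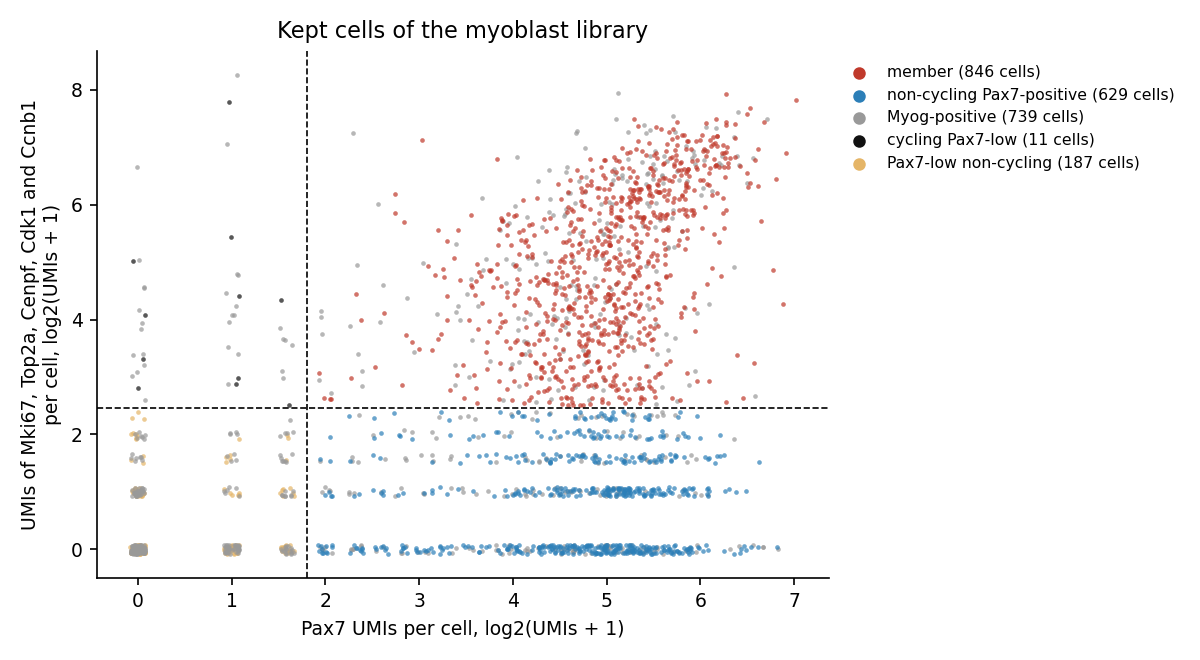
Pax7 UMIs (horizontal axis) and the summed UMIs of the 5 cycle genes (vertical axis) of each kept cell of the myoblast library, both as log2(UMIs + 1) with small jitter added for display; dashed lines mark the rule. The 846 members fill the upper right field, which they share with Myog-positive cells. Left of the Pax7 limit lie 11 cycling cells without Myog and some cycling Myog-positive cells.

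The label of these cells was set beside marker lists. Of the 12 progenitor markers, 10 reached 10 CPM in members or non-cycling cells. One of them was Pax7, at 1304 CPM in members. The rule asked for at least 3 Pax7 UMIs in each member, so its presence supports nothing. Among the markers the rule did not use were Myod1 at 403 and the adhesion molecule Cdh15 at 83.1 CPM. Chodl was at 0 and Msc at 0.130 CPM. Calcr, which codes for the calcitonin receptor and marks quiescence in these cells, had 0.0864 CPM. Macrophage markers summed to 4.06 CPM in members and 3.82 CPM in non-cycling cells, and T or NK cell markers to 0.0432 and 0.234 CPM. Endothelial markers summed to 14.0 and 13.6 CPM, Schwann markers to 8.30 and 8.41, and adipocyte markers to 1.25 and 0.467 CPM. The fibroblast list summed to 208 and 309 CPM, of which Col3a1 made 153 and 208 CPM, while Lum and Dpt were at 0 in both and Pdgfra was at 1.08 and 1.25 CPM. Mural cell markers summed to 442 CPM in members and 441 CPM in non-cycling cells. Smooth muscle actin, Acta2, made 377 and 327 CPM of this and Notch3 43.7 and 66.7 CPM, while Rgs5 was at 18.0 and 46.3 CPM and Kcnj8 at 0 in both. At 5000 UMIs per cell, 125 of 843 members held 5 or more UMIs of the mural list and 9 of the fibroblast list. Myocyte markers summed to 937 and 1091 CPM, and 328 members held 5 or more of their UMIs. The members thus carried progenitor markers together with some muscle, Acta2 and Col3a1 transcripts, and macrophage and T or NK cell markers were near 0.

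Promoters of the genes that set these cells apart are shown here because the CCAAT and CHR letters lie in many of them. The 300-base windows run from 250 bases before to 50 after the annotated start, in the direction of transcription, and come from the RefSeq table on GRCm38.p6; the deposited counts refer to GRCm39, so the coordinates hold for that table only. Capitals mark CCAAT and TTTGAA, each searched on both strands, so that a match on the other strand reads as its reverse complement. Ccnb1 lies at chr13:100786437-100786736 on the minus strand, Cdk1 at chr10:69352863-69353162 on the minus strand, Top2a at chr11:99024140-99024439 on the minus strand and Prc1 at chr7:80294201-80294500 on the plus strand.
Ccnb1: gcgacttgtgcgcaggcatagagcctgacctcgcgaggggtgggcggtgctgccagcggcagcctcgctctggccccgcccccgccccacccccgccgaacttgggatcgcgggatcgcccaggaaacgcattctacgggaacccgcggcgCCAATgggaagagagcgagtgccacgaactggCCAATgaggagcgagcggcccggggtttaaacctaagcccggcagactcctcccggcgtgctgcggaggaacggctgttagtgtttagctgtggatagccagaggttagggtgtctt
Cdk1: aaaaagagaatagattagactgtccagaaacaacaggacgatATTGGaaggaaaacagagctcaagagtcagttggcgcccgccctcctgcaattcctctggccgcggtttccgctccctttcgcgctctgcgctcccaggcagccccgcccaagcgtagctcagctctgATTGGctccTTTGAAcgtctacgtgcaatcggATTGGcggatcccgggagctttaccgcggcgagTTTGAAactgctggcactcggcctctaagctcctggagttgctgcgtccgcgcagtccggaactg
Top2a: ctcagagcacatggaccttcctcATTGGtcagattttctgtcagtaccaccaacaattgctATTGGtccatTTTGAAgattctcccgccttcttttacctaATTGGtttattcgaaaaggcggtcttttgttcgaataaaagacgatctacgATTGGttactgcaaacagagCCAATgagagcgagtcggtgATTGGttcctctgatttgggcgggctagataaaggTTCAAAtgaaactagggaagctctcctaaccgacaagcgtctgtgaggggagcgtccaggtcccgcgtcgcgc
Prc1: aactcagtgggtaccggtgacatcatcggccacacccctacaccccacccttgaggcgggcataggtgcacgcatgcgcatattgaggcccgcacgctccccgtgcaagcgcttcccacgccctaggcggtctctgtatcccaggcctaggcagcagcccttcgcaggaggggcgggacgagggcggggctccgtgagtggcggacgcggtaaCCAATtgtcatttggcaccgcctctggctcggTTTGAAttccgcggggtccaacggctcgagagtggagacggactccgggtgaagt
Ccnb1 had CCAAT 99 and 67 bases before the start and no TTTGAA in this window. Cdk1 had 3 CCAAT boxes on the other strand and TTTGAA 71 and 15 bases before the start. Top2a held 6 CCAAT boxes, 1 forward and 5 on the other strand, with TTTGAA 179 bases before the start and its reverse 23 bases before it. In Prc1 the boxes stood close together, with CCAAT 37 and TTTGAA 5 bases before the start of the window shown. Another annotated start of Prc1 places the same letters 62 and 30 bases before it.

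Both motifs occurred together in 4 of the 5 rule genes' windows. Among the genes of a list of 45 G2/M genes that had a window (38 genes, 40 windows), 60% of windows held both. The share over all 32851 windows of the table was 6.95%, and over the 9229 windows of genes measured in members or non-cycling cells it was 4.80%. For 37 DNA replication genes (S list; 30 genes with 35 windows) 5.71% held both, and for early muscle differentiation genes 5.26% of 38 windows. CCAAT alone was in 70% of the G2/M windows against 37.4% of all windows, and TTTGAA in 72.5% against 17.9%. Nusap1 and Pde7b, whose levels are given below, had neither motif in their windows. These are letter matches and not measured binding.

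Genes of mitosis and DNA copying were much higher in members than in non-cycling Pax7-positive cells, while the surface proteins of the progenitor and, except for Dach1, the myogenic factors stayed within the size rule. A gene met the size rule where the ratio of CPM + 5 was at least 2-fold and the higher class had at least 10 CPM. Of 8892 genes measured at 10 CPM, 326 were higher (3.67%) and 27 lower (0.304%) in members, and the median log2 ratio of all genes was 0.01. The rule's cycle genes are part of this contrast, so nothing is read from its counts beyond which genes went with them. Median depth also differed, at 26091 UMIs in members and 20801 in non-cycling cells. With non-cycling cells weighted to the members' depths, 330 genes were higher and 47 lower.

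All 45 genes of the G2/M list met the size rule higher in members, with a median log2 ratio of 2.86, and their summed level was 4956 CPM in members and 520 CPM in non-cycling cells. Nusap1, a spindle microtubule protein, was at 146 CPM (141 to 151) in members and 3.66 CPM (2.69 to 4.87) in non-cycling cells, a log2 ratio of 4.12. Cenpe, the kinetochore motor, had 165 and 5.06 CPM, and Prc1, which bundles the microtubules of the dividing spindle, 283 and 15.3 CPM. All were rare in the non-cycling cells. The motors Kif11 (93.7 and 3.12 CPM), Kif23 (129 and 7.17 CPM) and Kif4 (93.3 and 4.29 CPM) separate spindle poles, build the midbody and act on chromosome arms. Knl1, the kinetochore scaffold, was at 103 and 4.99 CPM. The smallest ratio in the list was that of Pttg1, securin, with 64.9 CPM in members and 27.2 CPM in non-cycling cells.

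Of 36 measured S list genes, 30 were higher in members, with a median log2 ratio of 1.40, and the summed level was 2959 CPM in members and 978 CPM in non-cycling cells. Clspn, the checkpoint adaptor claspin, was at 88.5 CPM (84.7 to 92.4) in members and 8.34 CPM (6.83 to 10.1) in non-cycling cells. Cyclin E2, Ccne2, which starts replication with Cdk2, had 120 and 22.1 CPM, and the primase subunit Prim1 53.7 and 9.27 CPM. The replication clamp Pcna was at 122 and 40.8 CPM, the helicase subunit Mcm6 at 125 and 53.0 CPM and the ribonucleotide reductase subunit Rrm2 at 225 and 58.0 CPM. The 6 that did not meet the rule were Mcm2, Cdt1, Slbp, Rfc2, E2f1 and Cdca7. Cdt1, which loads the helicase and is destroyed once replication starts, had 27.8 CPM in members and 21.1 CPM in non-cycling cells, and E2f1 had 26.1 and 14.4 CPM.

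Chromatin and repair genes went with them. Of 15 measured DNA repair genes 14 were higher, among them Brca1 (48.9 CPM in members, 10.8 CPM in non-cycling cells), while Fancd2 had 14.1 and 6.08 CPM. Of 26 measured chromatin genes 18 were higher. The linker histone H1f5 was at 579 CPM (569 to 588) in members and 39.8 CPM (36.4 to 43.4) in non-cycling cells, and Hmgb2 at 397 and 27.9 CPM. The replacement histone H3f3a, which is made throughout the cycle, had 604 and 591 CPM, and Ezh2, which methylates histone H3, 280 and 139 CPM. Histone H2ac24 stood at 966 and 93.0 CPM and H3c3 at 56.7 and 3.35 CPM; such histone genes have near-identical copies, and how reads shared between copies were counted is not given in the sources used here. Of 24 measured nucleotide synthesis genes 7 were higher, led by thymidine kinase Tk1 (58.1 and 4.52 CPM). In a list of 11 tubulin genes 3 were, Tuba1b, Tubb4b and the tubulin-binding Stmn1.

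Genes outside the cell cycle lists with the highest ratios were of the same kind. Sgo2a, which protects cohesin at centromeres, was at 77.1 CPM in members and 2.57 CPM in non-cycling cells. Fbxo5, an inhibitor of the anaphase-promoting complex, had 62.2 and 2.42 CPM, and Pclaf, a partner of Pcna, 310 and 31.2 CPM. Incenp of the Aurora B complex was at 105 and 8.65 CPM and the spindle motor Kif15 at 90.1 and 5.77 CPM. Diaph3, a formin that assembles actin, had 251 and 27.1 CPM and the kinase Melk 52.2 and 2.81 CPM.

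Most measured regulators of the decision to divide did not meet the size rule. The classes were split on genes of the division machinery, so its ratios cannot be weighed against those of the regulators. The D cyclins, which carry growth signals to Cdk4 and Cdk6, did not meet the size rule: Ccnd1 had 615 CPM in members and 800 CPM in non-cycling cells, Ccnd2 637 and 1242 CPM and Ccnd3 215 and 273 CPM. Cdk4 was at 227 and 198 CPM. Of 14 measured G1 genes 4 were higher, namely Cks2, Cks1b and the late E2F repressors E2f7 and E2f8, with Cks2 at 228 and 55.6 CPM. Among 25 measured inhibitors and p53 targets, Cdkn2c (20.3 and 4.36 CPM) and the pocket protein Rbl1 (33.1 and 11.1 CPM) were higher. The main p53 target inhibitor Cdkn1a had 350 and 351 CPM. Cdkn2a, which codes for both p16 and Arf from overlapping transcripts that were not told apart here, had 220 and 302 CPM.

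Of 22 measured myogenic factors 0 met the size rule higher and 1 met it lower, and their median log2 ratio was -0.14. Myod1 was at 403 CPM (395 to 411) in members and 482 CPM (470 to 494) in non-cycling cells and Myf5 at 26.4 and 22.7 CPM. The factor that was lower was Dach1, a transcription cofactor, at 16.0 CPM (14.4 to 17.7) in members and 61.1 CPM (56.9 to 65.5) in non-cycling cells. None of the 16 measured progenitor surface genes, 28 early differentiation genes or 22 ribosome biogenesis genes met the rule in either direction, with median log2 ratios of -0.15, -0.33 and 0.37. The same held for the measured genes of the Notch, BMP, FGF, TGF-beta, glycolysis, respiration, proteasome and cholesterol lists.

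The 27 lower genes were led by Pde7b, a cAMP phosphodiesterase, at 31.5 CPM (29.2 to 33.9) in members and 170 CPM (163 to 178) in non-cycling cells, a log2 ratio of -2.27. Mxd4, which opposes Myc as a partner of Max, was at 18.9 and 67.7 CPM, and Pdcd4, which restrains translation, at 78.7 and 195 CPM. Mgp, a secreted inhibitor of calcification, had 252 and 645 CPM, the protocadherin Pcdh9 90.1 and 234 CPM, and Igfbp3, which binds insulin-like growth factors, 33.5 and 78.8 CPM. AA467197, the hormone-processing protease gene Pcsk2 and the ubiquitin ligase gene Marchf3 were also among the 10 with the lowest ratios.

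**Figure D2:**
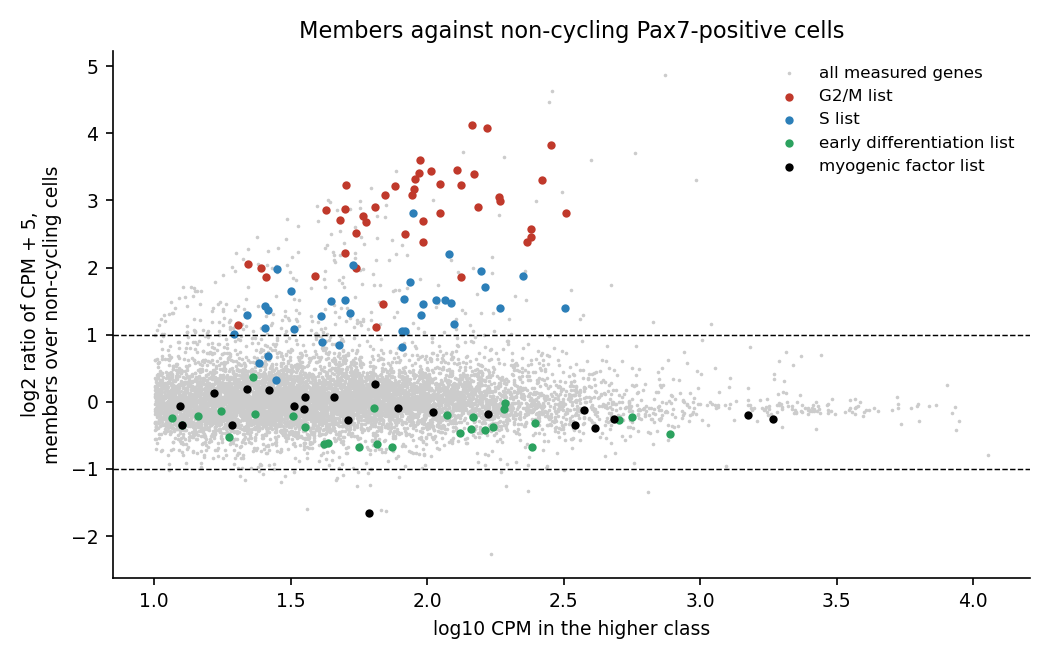
Log2 ratio of CPM + 5 of members over non-cycling Pax7-positive cells (vertical axis) against log10 CPM in the higher class (horizontal axis) for each measured gene, with 4 gene lists in colour and dashed lines at a 2-fold ratio. The 45 G2/M genes lie above the upper line, 30 of 36 S genes do, and the myogenic factors lie between the lines except Dach1.

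Members were also set beside 266 cells that had at least 5 UMIs of the cycle genes and at least 1 of Myog, with a median of 27436 UMIs. The cell cycle genes stood at like levels in both classes, and the muscle genes did not. Of 8882 measured genes 3 were higher (0.0338%) and 231 lower (2.6%) in members. No gene of the 45 in the G2/M list or the 36 measured in the S list met the size rule in either direction, with median log2 ratios of 0.13 and 0.19 beside 0.06 for all genes. Prc1 had 283 CPM in members and 282 CPM in cycling Myog-positive cells, Pcna 122 and 108 CPM, and Nusap1 146 and 149 CPM. By contrast 30 of 38 measured early differentiation genes were lower, with a median log2 ratio of -2.52. Both classes had to meet the same cycle-gene criterion, so their like cell cycle levels are a description and support nothing. Absence of Myog is part of the rule, so the contrast in muscle genes describes which genes went with Myog.

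Acta1, skeletal muscle actin, was at 27.0 CPM (24.9 to 29.2) in members and 1747 CPM (1718 to 1777) in cycling Myog-positive cells. The fast myosin light chain Mylpf had 102 and 2356 CPM, embryonic myosin Myh3 23.1 and 702 CPM, and the troponin Tnnc2 9.98 and 487 CPM. Mef2c, a partner of the myogenic factors, was at 8.81 and 384 CPM and the fusion protein Mymk, myomaker, at 11.4 and 227 CPM. The cell cycle inhibitor Cdkn1c had 3.07 and 40.8 CPM, while Cdkn1a had 350 and 651 CPM and did not meet the rule. Myod1 was at 403 and 491 CPM. C77080, the 1 gene of at least 50 CPM that was higher, had 84.4 and 23.4 CPM, and 10 members held 73.2% of its UMIs.

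**Figure D3:**
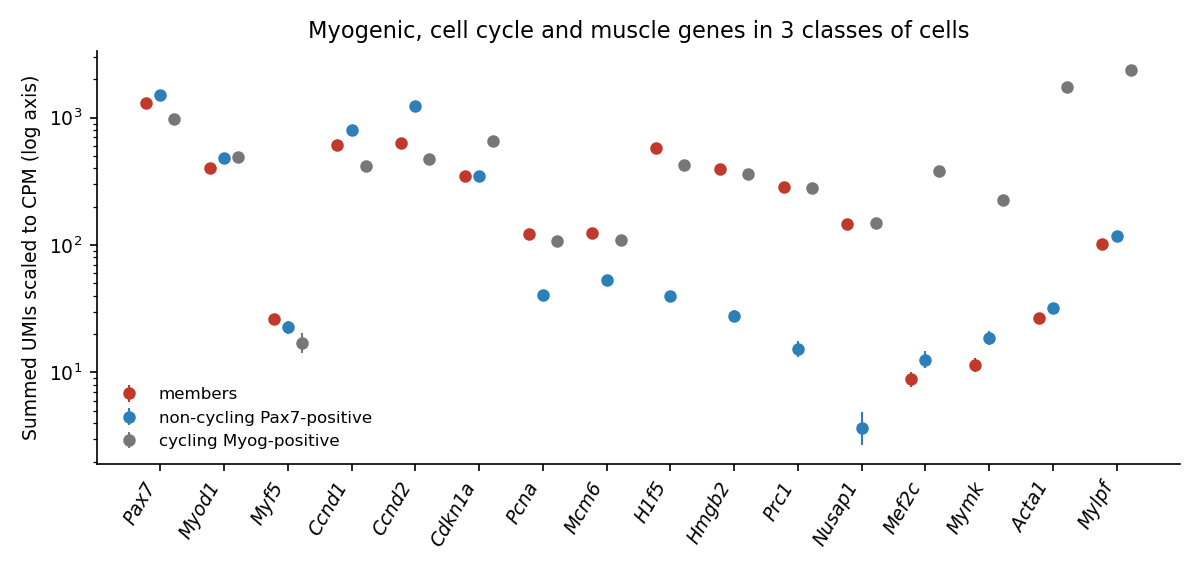
Summed UMIs scaled to CPM (log axis) of 16 genes in members, non-cycling Pax7-positive cells and cycling Myog-positive cells of the myoblast library; bars are exact Poisson intervals at 95% and cover counting error only. Members lie with the cycling Myog-positive cells for the genes from Pcna to Nusap1 and with the non-cycling cells for the genes from Mef2c to Mylpf.

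Shares of cells with a UMI were taken at equal depth, with each cell thinned to 5000 UMIs and 3 members, 19 non-cycling and 2 cycling Myog-positive cells left out as too shallow. Myod1 was found in 79.2% of members, 81.0% of non-cycling and 86.7% of cycling Myog-positive cells. Prc1 was found in 54.4, 6.72 and 56.1%. Acta1 was found in 14.4% of members, 16.6% of non-cycling and 31.1% of cycling Myog-positive cells, so most of the Myog-positive cells had none at this depth and their summed Acta1 level was carried unevenly. Of the 266 cycling Myog-positive cells, 138 had exactly 1 UMI of Myog and at least 3 of Pax7. For background, 246 myocytes of the same library (at least 100 UMIs of Acta1, Myl1 and Myh3; median depth 25455 UMIs) had a Prc1 UMI in 4.88%, a Mki67 UMI in 2.03% and a Pax7 UMI in 19.5% of cells, and an Acta1 UMI in 100%. The Prc1 share of non-cycling cells was thus near that of myocytes. Unthinned, a Prc1 UMI was found in 82.6% of members and 24.5% of non-cycling cells.

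Against all 1566 other kept cells, which mix the classes above with 187 shallow Pax7-low cells (median 3085 UMIs), 243 of 9021 measured genes were higher (2.69%) and 301 lower (3.34%). The higher side was again of the division cycle, with 44 of 45 G2/M and 25 of 36 measured S genes, and H1f5 at 579 CPM in members and 122 CPM in the other cells. On the lower side stood 33 of 38 measured early differentiation genes and the 12 myocyte markers, of which Myog was set to 0 in members by the rule. Among the others were Acta1 (27.0 and 2256 CPM), Myl1 (26.2 and 2034 CPM) and Myh1 (5.27 and 459 CPM). Cycling cells with fewer than 3 Pax7 UMIs and no Myog numbered 11 and held 480425 UMIs, between 1683 and 118621 per cell. Myod1 was at 403 CPM in members and 10.4 CPM (3.38 to 24.3) in those few cells, while the fibroblast collagen gene Col1a2 had 18.7 and 1409 CPM and Timp3, an inhibitor of matrix proteases, 12.9 and 1740 CPM. With the Pax7 limit at 1 UMI the log2 ratio of Timp3 was -0.06, against -6.61 at 3 UMIs. Of 9416 genes 1300 were higher (13.8%) and 971 lower (10.3%) in members, counts that moved to as many as 3562 higher when the deepest cells were left out.

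Within the members the cycle was spread from replication to mitosis. With cells thinned to 5000 UMIs, 548 of 843 members had more UMIs of the G2/M list (65.0%, 61.7 to 68.2%), 279 had more of the S list (33.1%, 29.9 to 36.4%) and 16 had as many of each. These are ranges of a score and not cell types, and 18 of the S range and 17 of the G2/M range lay within 1 UMI of the boundary. The rule's own genes are mostly of late S phase to mitosis, so the split also depends on which cells it admits. Between the S and the G2/M range, 60 of 8854 genes were higher (0.678%) and 54 lower (0.61%), and 43 and 26 of them were outside the lists that made the ranges.

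Outside those lists, Dtl, part of the ubiquitin ligase that destroys Cdt1, was at 101 CPM in the S range and 29.3 CPM in the G2/M range. The repressor E2f7 had 58.2 and 18.5 CPM, and Atad5, which unloads Pcna, 66.1 and 23.1 CPM. Galanin, Gal, a neuropeptide gene, was at 236 and 95.1 CPM, but few members carried it: 13.4% had a UMI at 5000 UMIs per cell, and 10 members held 48.1% of its UMIs. Arl6ip1, an endoplasmic reticulum protein, was lower, with 76.0 CPM in the S range and 279 CPM in the G2/M range, and Cenpf had 89.0 and 377 CPM. None of 21 measured myogenic factors met the rule, with a median log2 ratio of -0.04.

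Ordered by the G2/M share of those UMIs and divided into 4 equal groups, from the lowest share to the highest, the members ran from replication genes to mitotic genes, as the order itself sets. Ccne2 was at 303, 149, 29.7 and 7.67 CPM from the first to the last group, and Mcm6 at 193, 153, 96.5 and 63.2 CPM. H1f5 peaked in the second group, at 676, 1018, 502 and 152 CPM, as did H2ac24, at 1050, 1643, 896 and 325 CPM. Top2a was already high in the second, at 402, 789, 834 and 925 CPM, while Cenpf (73.0, 162, 312 and 544 CPM) and Ccnb1 (43.6, 82.8, 159 and 247 CPM) were highest in the last. Ccne2 and Mcm6 belong to the lists that set this order, and Top2a, Cenpf and Ccnb1 to the rule that chose the cells.

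Genes outside the order behaved in several ways. Myod1 was even, at 390, 424, 399 and 399 CPM, and Cdkn1a was at 352, 385, 334 and 330 CPM. Pax7 was at 1157, 1192, 1346 and 1503 CPM, so its summed level was higher toward the mitotic end, and the median per 10000 UMIs was 11.1, 11.7, 13.0 and 14.6. Ccnd2 dipped in between, at 921, 576, 463 and 596 CPM, and Ccnd1 likewise at 717, 515, 590 and 639 CPM. Ankrd1, a muscle protein known as a YAP target, was at 2350, 2339, 1909 and 1419 CPM. Inhba, an activin subunit, had 41.3 CPM in the first group and 10.0, 9.14 and 8.65 CPM in the others.

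**Figure D4:**
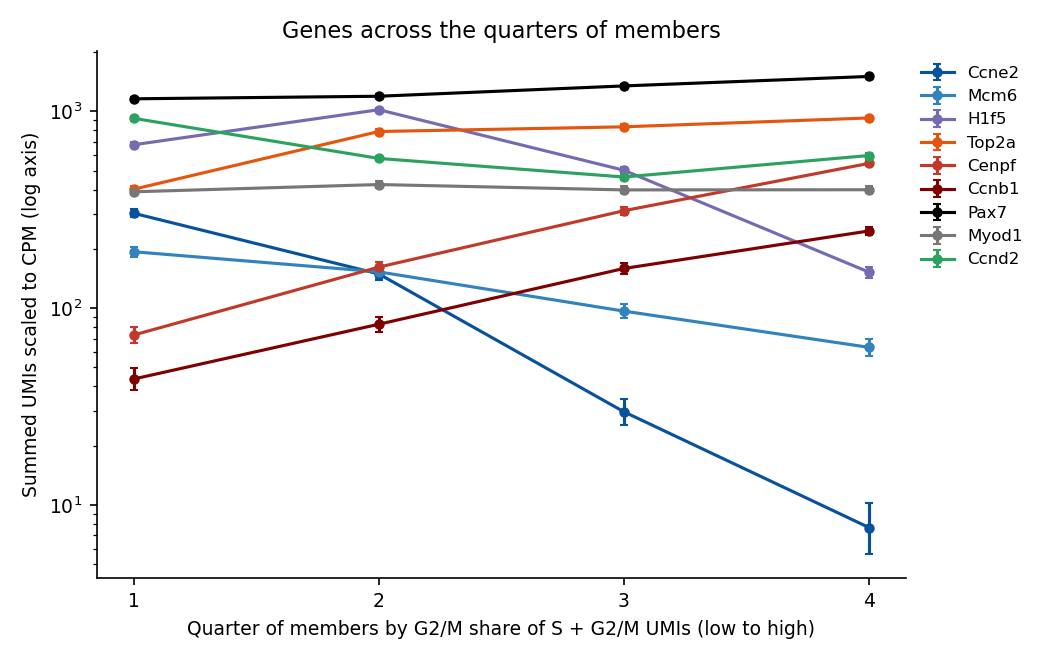
Summed UMIs scaled to CPM (log axis) of 9 genes in 4 groups of members ordered by the G2/M share of their S and G2/M list UMIs, lowest share at the left; bars are exact Poisson intervals at 95% and cover counting error only. Ccne2 and Mcm6 go down, Cenpf and Ccnb1 go up, H1f5 is highest in the second group, and Myod1 stays between 390 and 424 CPM.

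Relative to depth, Pax7 ran between 1.28 and 30.8 UMIs per 10000 in single members. The 282 members with the most Pax7 (at least 14.6 per 10000) were set beside the 282 with the least (at most 10.8 per 10000), with medians of 26305 and 24893.5 UMIs. Of 8810 measured genes 7 were higher (0.0795%) and 24 lower (0.272%) in the Pax7-rich cells, and 6 of the 7 were genes other than Pax7, which made the groups. The S list had a median log2 ratio of -0.54 and the G2/M list of 0.34, and of their genes only Ccne2 met the rule, with 70.3 CPM in Pax7-rich and 179 CPM in Pax7-poor cells. Cenpf had 343 and 203 CPM. Histone genes H1f1 (19.5 and 52.6 CPM) and H2ac8 (126 and 268 CPM) were lower as well, and Atp10d, a lipid flippase, was higher (60.6 and 22.2 CPM). Myod1 had 426 and 383 CPM and Myf5 35.4 and 20.4 CPM, and neither met the rule. The Pax7-nGFP transcript had 242 and 174 CPM.

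The same rule found 2904 cells in the MPC library (29.3% of kept cells, 28.5 to 30.3%), 1637 in ASC (24.3%, 23.3 to 25.3%) and 9 in fiSC (0.400%, 0.183 to 0.758%). The rule was on raw UMIs, and median kept depth was 22957.5 UMIs in the myoblast library, 13751 in MPC, 19853 in ASC and 8831 in fiSC. In ASC 55.4% of kept cells were Pax7-low and non-cycling, without Myog. The part of depth and of cell mixture in the differences between these shares was not tested. The 9 fresh cells were too few to describe. In both cultures the rule separated the G2/M list in full, and the S list less so in MPC. Between cycling and non-cycling Pax7-positive MPC cells, 256 of 9047 genes were higher (2.83%) and 2 lower (0.0221%), with all 45 G2/M genes but 7 of 37 S genes higher. The G2/M median log2 ratio was 2.86 in the myoblast and 3.03 in the MPC library, and the S median 1.40 and 0.42. Mcm3 had 108 CPM in cycling and 34.4 CPM in non-cycling myoblasts, against 106 CPM in cycling and 113 CPM in non-cycling MPC cells, so for this gene the gap between the libraries lay in their non-cycling cells. Summed over the S list, non-cycling cells had 978 CPM in the myoblast and 2323 CPM in the MPC library.

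Depth differed between those classes, with a median of 20801 UMIs in non-cycling myoblasts and 9753 in non-cycling MPC cells, so the rule was also used at equal depth. Cells of both libraries with at least 10000 UMIs were thinned to that depth before the rule was applied, and shallower cells were left out. The non-cycling class then held 758 myoblasts (629 before) and 782 MPC cells (1492 before), so for MPC it was a deeper subset. In these cells 16 of 36 S genes were higher in the myoblast and 4 of 37 in the MPC library, with medians of 0.95 and 0.21. The summed S level of non-cycling cells was then 1412 CPM and 2676 CPM. All 45 G2/M genes stayed higher in both, with medians of 2.58 and 2.83.

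**Figure D5:**
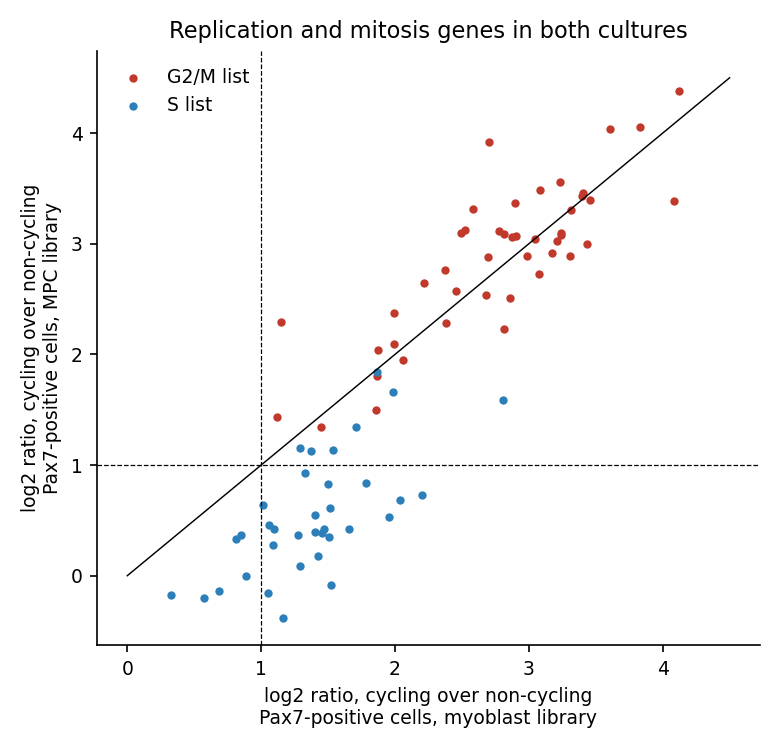
Log2 ratio of CPM + 5 of cycling over non-cycling Pax7-positive cells in the myoblast library (horizontal axis) and the MPC library (vertical axis) for the genes of the G2/M and S lists; dashed lines mark a 2-fold ratio and the solid line equal ratios. The G2/M genes scatter about the line of equal ratios, and most S genes lie below it, with medians of 1.40 and 0.42.

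The same 5 cycle genes made the classes in each library. Overlap of genes that go with them was therefore set in part by the rule, and the shares below are a description. Of the 326 genes higher in the members, 220 were also higher in cycling MPC cells, which is 67.5% of the myoblast and 85.9% of the MPC genes. In ASC 501 of 9066 genes were higher (5.53%) and 1100 lower (12.1%) in cycling cells, and 249 were shared, 76.4% of the myoblast and 49.7% of the ASC genes. Another 3 of the 326 were lower in cycling ASC cells. Median depth was 52416 UMIs in cycling and 14205 in non-cycling ASC cells, and the part of depth was not tested. The 109 non-cycling Pax7-positive ASC cells held 2088 CPM of macrophage markers, against 675 CPM in the cycling ones, and the part of this in the ASC counts was not tested. Of the 27 lower genes of the myoblast library, 0 were lower in MPC and 14 in ASC. Pde7b had 206 CPM in cycling and 272 CPM in non-cycling MPC cells, and Mgp 1223 and 1345 CPM.

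Cycling Pax7-positive cells of the 3 libraries, each chosen with the same cycle-gene criterion, were then set side by side. The criterion was on raw UMIs, and median depth was 26091 UMIs in myoblasts, 14790.5 in MPC and 52416 in ASC. The 5 cycle genes of the rule summed to 1634 CPM in myoblasts, 2467 CPM in MPC and 1141 CPM in ASC. The classes were thus not matched in these genes, and the part of depth was not tested. Prc1 was at 283 CPM in myoblasts, 293 CPM in MPC and 282 CPM in ASC. Against MPC, 658 of 9384 genes were higher (7.01%) and 744 lower (7.93%) in myoblasts, but none of 45 G2/M genes was higher and 2 were lower, and of 36 S genes 1 was lower; most measured genes met the size rule in neither direction. Myod1 had 403 CPM in myoblasts and 45.8 CPM in MPC, and a UMI in 79.2 and 18.4% of cells at equal depth. Ccnd2 had 637 and 82.4 CPM, the acetylcholine receptor subunit Chrna1 480 and 11.2 CPM, Ankrd1 1992 and 33.9 CPM, and the mast cell protease gene Mcpt8 284 and 0.0208 CPM. On the lower side were Cdkn1c (3.07 and 1020 CPM), Gpc3, a glypican (1.51 and 516 CPM), Itm2a (21.4 and 1005 CPM) and the nuclear receptor Rora (26.7 and 1309 CPM). Of 16 measured quiescence genes 10 were lower in the myoblasts, with a median log2 ratio of -1.77 beside -0.06 for all genes.

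Against cycling ASC, 1110 of 8990 genes were higher (12.3%) and 384 lower (4.27%) in myoblasts. For the G2/M list, 4 of 45 genes met the size rule as higher and 0 as lower; log2 ratios had a median of 0.37 and reached 2.09. Of 37 S genes 1 was higher and 1 lower. The highest ratio among genes of at least 50 CPM was that of Ccnd2, at 637 CPM in myoblasts and 2.23 CPM in ASC, while Ccnd1 had 615 and 446 CPM and did not meet the rule. Pax7 had 1304 CPM in myoblasts and 140 CPM in ASC, and Myod1 403 and 175 CPM. Matrix genes were higher for 14 of 20 measured, such as the basement membrane collagen Col4a1 at 245 and 1.73 CPM. Histone H2ac24 had 966 and 18.4 CPM, whereas H1f5 had 579 and 852 CPM. Among the lowest ratios were Apoe (0.821 and 451 CPM) and Lyz2 (0.0864 and 357 CPM), genes that macrophages express strongly, and macrophage markers summed to 4.06 CPM in myoblasts and 675 CPM in cycling ASC; their part in the result was not tested. Of 18 measured immediate early genes 10 were lower in myoblasts, among them Fos (6.26 and 109 CPM). The median of all genes was 0.19 in this comparison and that of 22 ribosomal protein genes -0.77.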

How the data were processed

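Single cells of 4 mouse muscle libraries were measured with 10x Genomics 3' v3.1 chemistry and sequenced on a NovaSeq instrument, per the labels. The authors deposited UMI counts per gene and barcode, without normalization. Per the submitters' processing notes, the aligner was STAR 2.7.10b and the build GRCm39. UMI collapsing, cell calling, annotation and strand setting are not given in the sources used here. The tables list 25828 features under 25804 symbols, and features of 1 symbol were summed.

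Filters and the selection rule are as given above. UMIs were summed per class and scaled to CPM (numpy 2.4.6, pandas 2.3.3, scipy 1.17.1). Ratios used a pseudocount of 5 CPM, and the size rule asked for 2-fold and 10 CPM. A count of 0 was read against a floor of 3 counts, 0.130 CPM in members. With 1 library per group there was no test. The gene lists (37 lists) and the members were chosen with earlier results of these data known. The comparisons with cycling Myog-positive cells and with the other libraries, the 4 groups by G2/M share, the Pax7 groups, the myocyte class and the patchy genes were chosen after seeing the data. So was the use of the rule at equal depth in both cultures.

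Named genes were the 10 highest and 10 lowest ratios of at least 50 CPM that met the size rule, without rule genes; in the comparison with non-cycling cells also the 10 highest outside the S, G2/M, repair and chromatin lists; for S against G2/M range and the Pax7 groups the 5 highest and 5 lowest; and list genes of at least 20 CPM. Some genes that this rule takes in are not reported here. Doublets were not removed in the results above. Scrublet (in scanpy 1.11.5) called 5 cells (0.207%) by its automatic threshold, too few to have worked, so removal at the expected rate of 1.93% was tried as an alternative, along with edgeR 4.0.16 TMM factors and others. The size rule was run on simulated data for members against non-cycling cells. It recovered 200 of 200 changed genes and called 0 others among 8477 genes. The changes lay well beyond 2-fold, in genes of at least 50 CPM in non-cycling cells, with counting error only. Recovery was therefore set in advance by these settings, and changes near the limits of the rule were not probed.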

Additional observations from a re-analysis of the deposited data

How the results depend on the processing

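No paired analysis was possible because each group had 1 library and no test was run, and for the same reason no replicate could be left out. The number of members moved from 846 to 192 (31.6% of kept cells) at a mitochondrial limit of 5%, to 938 (38.9%) with at least 3 cycle-gene UMIs and to 707 (29.3%) with at least 10. At a minimum of 50 CPM the higher and lower counts were 140 and 146 against the other cells, 157 and 15 against non-cycling cells, 536 and 525 against cycling Pax7-low cells, and 1 and 102 against cycling Myog-positive cells. Genes lower than in non-cycling cells, 27 as reported, numbered 47 with depths matched and 73 with a pseudocount of 1 CPM. The 29 genes named for that comparison kept their direction and their side of the size rule in 464 of 464 values under the alternatives. They had been picked for the most extreme ratios, and some alternatives could not move a ratio here. Those were a changed CPM minimum and the removal of shallow Pax7-low cells, so the full count is not a measure of robustness. The S list median of 1.40 was 0.95, below 2-fold, with the rule applied after thinning. Genes higher than in cycling Myog-positive cells, 3 as reported, numbered 9 with at least 1 Pax7 UMI or with at least 10 cycle-gene UMIs, 41 with the rule applied after thinning, 12 with depths matched or a pseudocount of 1 CPM, 5 with mean CPM per cell, no minimum or doublets removed, and 8 without cells above the 95th percentile of UMIs (43924.5). In the comparison with 11 Pax7-low cells, 1300 and 971 as reported, there were 389 higher and 571 lower with the rule after thinning, and 2357, 2020 and 3562 higher with depths matched, mean CPM per cell and the deepest cells removed. There the S list median turned to -0.015 and Smoc2 and Ccl7 to 0.46 and 0.19 without the deepest cells, Ccl7 to 1.06 with at least 1 Pax7 UMI, and the early differentiation median to -0.23 with mean CPM per cell. The cause of these moves was not tested. Removing shared barcodes or fibroblast-marker cells, chosen after seeing the data, left 324 genes higher and 26 to 28 lower than in non-cycling cells. Shallow Pax7-low cells are in neither class, so their removal, also chosen after seeing the data, could not change that comparison. Against the other kept cells their removal left 233 genes higher and 307 lower.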

Other observations

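A handful of genes were carried by few members at high counts. Over members thinned to 5000 UMIs, the variance of a gene's UMIs was close to its mean for most genes, with a median ratio of 1.09 over 3448 genes. C77080 had a ratio of 22.7, Gal 12.2 and Igfbp5 9.99. A gene was called patchy, after seeing the data, when under 25% of members had a UMI and at least 1 member had 15 or more. This was asked only of 20 genes listed for a high ratio of variance to mean. Each had a mean of at least 0.25 UMIs per 5000. It held for 11 of the 20, and genes outside the listing were not screened. Of 843 members, 179 (21.2%) had 5 or more UMIs of at least 1 of the 11 genes, and 31 of more than 1. C77080 reached 5 UMIs in 17 members (2.02%), against 1.48% of non-cycling and 0.576% of Myog-positive cells, and 10 members held 73.2% of its 1953 UMIs. Galanin did so in 28 members (3.32%), against 7.87% of non-cycling and 3.45% of Myog-positive cells, and Igfbp5, which binds insulin-like growth factors, in 0.949% of members, 5.41% of non-cycling and 7.48% of Myog-positive cells. Ulk4 did so in 33, Btbd16 in 30, Gfod2 in 28 and Cyfip2 in 23 members. The pair most often found together, C77080 and Ulk4, shared 4 members, and whether such pairs met more often than their shares give was not tested.

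Osteopontin, Spp1, a secreted phosphoprotein, was found in nearly all members but at very unequal counts, with 0 UMIs per 5000 in the lowest, 28 in the median and 209 in the highest member. Its summed level was 6563 CPM in members and 11330 CPM in non-cycling cells. The granzyme-family genes Mcpt8 (284 and 487 CPM), Gzme (100 and 184 CPM) and Gzmd (52.7 and 93.6 CPM) were likewise lower in members without meeting the size rule; these genes lie in a family of near-identical copies. A median log2 ratio of -0.38 held over 18 measured genes of a list that earlier results had shown to be high in this culture, with 0 of them past the size rule.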
